A study of Mus musculus with 16 samples.

Results

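The regions described here are stretches of the mouse genome at which all 4 mapped transcription factors, RUNX1, MyoD, c-Jun and MyoG, had a peak of chromatin immunoprecipitation sequencing (ChIP-seq). They were found by merging the peaks of the 4 deposited lists that overlapped by 1 bp or more on chromosomes 1 to 19 of the build mm9, and by keeping each merged region with at least 1 peak of every list. This gave 10532 regions out of 97753 merged regions, or 10.8% of them. They are called 4-factor regions below.

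The cells were satellite cells from the gastrocnemius of wild-type C57BL/6 mice aged 2 to 3 weeks, grown in culture. Proliferating primary myoblasts, cultured for 3 days, gave the RUNX1, MyoD and c-Jun ChIP samples. The MyoG ChIP samples came from primary myotubes, cultured for 3 days and then for 24 hours in differentiation medium. Each factor had 2 ChIP samples. The control samples, 2 for each factor, were precipitated with rabbit non-immune serum for RUNX1, mouse IgG for MyoD and for MyoG, and rabbit IgG for c-Jun, and they were not analysed here. The lists carry 1 entry per peak with no value per replicate, no read count and no control value, so the spread between cultures and the depth are unknown. The ranges given below are the lowest and highest values over the 19 chromosomes, which show variation along the genome only. The list taken as MyoG bears an abbreviation and was assigned by elimination. Since MyoG alone was mapped in myotubes, factor and cell stage cannot be told apart for it.

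MyoD and MyoG are basic helix-loop-helix factors of the myogenic family. They bind E-box elements as dimers with E proteins. MyoD acts in the commitment of myoblasts to the muscle lineage, and MyoG in their terminal differentiation. RUNX1 is a Runt-domain factor that binds DNA together with its partner CBFB, and c-Jun is a leucine-zipper subunit of AP-1, a dimeric factor tied to growth signals and proliferation. Enhancers active in a cell type often carry several such factors side by side, and a region with peaks of all 4 lists is a candidate for such an element. Peak overlap does not show that the factors sat on the same DNA molecule, nor at the same time, as MyoG came from later cells. No mm9 sequence or gene annotation was used here, so the regions are given by position and without genes or motifs.

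The regions were chosen by the peak calls of these same lists, so every count, score and distance below describes them and none is tested. Among regions that held the other 3 factors, MyoG was the factor most often present and c-Jun the one least often present. Of the 11463 regions with RUNX1, MyoD and c-Jun, 91.9% also held MyoG (89.4% to 93.9% over chromosomes). MyoD was present at 80.3% of the 13118 regions with the other 3 factors (76.7% to 82.9%), RUNX1 at 69.4% of 15170 (62.3% to 74.0%), and c-Jun at 61.4% of 17147 (58.2% to 65.5%). The ranges of MyoG, MyoD and c-Jun did not overlap one another, while those of RUNX1 and c-Jun did. The same order held over all 97753 merged regions, of which 59.6% held MyoG, 44.7% MyoD, 42.3% RUNX1 and 41.9% c-Jun, and the part of list size in the order was not tested. The regions that lacked a single factor thus numbered 931 without MyoG, 2586 without MyoD, 4638 without RUNX1 and 6615 without c-Jun. By chromosome, 4-factor regions made up between 9.23% of the merged regions on chromosome 3 and 11.7% on chromosome 19.

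The 4-factor regions took up about the same share of each myoblast list and a smaller share of the larger MyoG list. They held 11190 of 42226 RUNX1 peaks (26.5%, 24.8% to 28.5% over chromosomes), 11637 of 45201 MyoD peaks (25.7%, 21.7% to 28.7%) and 10942 of 41480 c-Jun peaks (26.4%, 21.1% to 30.2%). Of 61491 MyoG peaks, 12552 lay in them (20.4%, 18.3% to 22.4%). The MyoD and c-Jun shares were lowest on chromosome 3, the RUNX1 share on chromosome 9 and the MyoG share on chromosome 14.

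Strong peaks lay in 4-factor regions far more often than weak ones, in every list. Peak strength is the score that the authors' peak caller wrote, which runs from 50.01 to 3233.06 in each list and has many ties at 3100, called the score ceiling. Each list was cut into 10 classes of about equal size by this score. For MyoD, 8.35% of peaks in class 1, the weakest, lay in a 4-factor region, 16.9% in class 5 and 64.6% in class 10, the strongest. For MyoG these shares were 6.28%, 12.9% and 55.5%. RUNX1 had 12.5%, 22.4% and 50.9%, and c-Jun 13.4%, 21.9% and 53.4%. In each list the share rose at every step from class 1 to class 10. The steepest stretch was the top of the MyoD list, where class 8 had 33.3% and class 9 had 45.5%. Among peaks at or above the score ceiling, 686 of 868 MyoD peaks (79.0%) and 602 of 772 MyoG peaks (78.0%) lay in 4-factor regions, as did 275 of 417 RUNX1 peaks (65.9%) and 210 of 322 c-Jun peaks (65.2%). Stronger peaks were also wider. In classes 1, 5 and 10 the median widths were 595 bp, 808 bp and 1067 bp for MyoD, 507 bp, 636 bp and 923 bp for MyoG, 719 bp, 888 bp and 1396 bp for RUNX1, and 884 bp, 1113 bp and 1421 bp for c-Jun. Median widths inside and outside the 4-factor regions were 930 bp and 785 bp for MyoD, 758 bp and 621 bp for MyoG, 1044 bp and 913 bp for RUNX1, and 1224 bp and 1099 bp for c-Jun. The part of width in the rising shares was not tested.

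**Figure D1:**
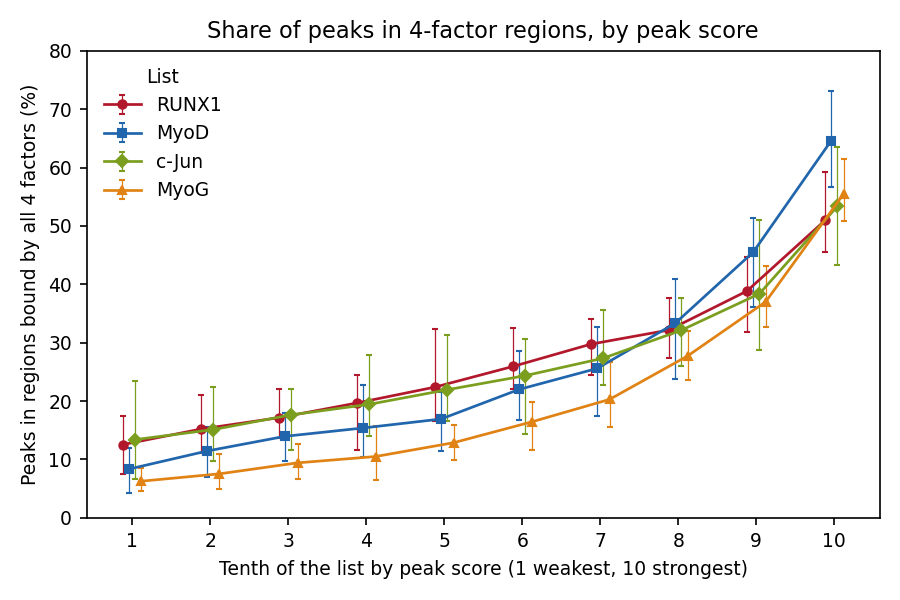
Share of the peaks of each list that lay in a 4-factor region (vertical axis, percent), by class of the peak score within the list (horizontal axis, class 1 weakest to class 10 strongest). Points are the shares over chromosomes 1 to 19 and bars run from the lowest to the highest chromosome. All 4 lines rise, and MyoD ends highest at 64.6%.

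Within the regions, the myogenic factors stood higher in their lists than RUNX1 and c-Jun. For each region the best-scoring peak of a list was placed as a percentile of that whole list, where 100 is the strongest peak and ceiling scores are tied. The median was percentile 81.2 for MyoG (78.3 to 83.4 over chromosomes) and 77.4 for MyoD (74.2 to 79.7). It was 68.5 for RUNX1 (64.5 to 71.9) and 68.7 for c-Jun (65.6 to 73.8). The chromosome ranges of the myogenic factors lay above those of RUNX1 and c-Jun. On the authors' score scale the medians were 703 for MyoG, 530 for MyoD, 343 for RUNX1 and 324 for c-Jun. The lists differ in size and their depths are unknown, and the part of either in these orders was not tested. The middle 50% of the regions still ran widely, from percentile 43.3 to 87.3 for RUNX1 and from 61.2 to 92.6 for MyoG. In regions with exactly 1 peak per list, where no choice among several peaks was made, the medians were 79.8 for MyoG, 76.3 for MyoD, 65.7 for RUNX1 and 65.9 for c-Jun.

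A peak among the strongest 10% of its list served as a second reading of strength. MyoG had such a peak in 3359 of the 10532 regions (31.9%), against 10.5% of all merged regions with a MyoG peak. For MyoD it was 2882 regions (27.4%), against 10.3% of all merged regions with a MyoD peak. For c-Jun it was 2227 regions (21.1%), against 10.2%, and for RUNX1 2154 regions (20.5%), against 10.3%, over all merged regions with that factor's peak. Read the other way, 64.3% of all merged regions with a MyoD peak of this strength were 4-factor regions, and 50.8% of those with such a RUNX1 peak. These shares follow from the same peak calls as the rule and add no support to it.

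How many of the 4 factors were strong together depended on where strength was set. In 266 regions (2.53%) all 4 had a peak among the strongest 10% of their lists, in 934 regions 3 of the 4 did, in 1851 regions 2, and in 3054 regions 1. In the other 4427 regions (42.0%) none of the 4 did. All 4 factors lay above the median of their lists in 3888 regions (36.9%), and all 4 lay below it in 151 (1.43%). The factor with the lowest percentile was c-Jun in 35.0% of regions and RUNX1 in 32.8%, against 19.4% for MyoD and 12.8% for MyoG. The highest percentile belonged to MyoG in 32.9% of regions, to c-Jun in 23.7%, to MyoD in 22.1% and to RUNX1 in 21.3%. By these counts c-Jun was the weakest of the 4 most often and still the strongest more often than MyoD or RUNX1 were. The chromosome ranges for the strongest overlapped: 20.2% to 28.1% for c-Jun, 18.8% to 25.5% for MyoD and 16.5% to 27.2% for RUNX1. Ceiling ties put the top percentile at 99.6 for c-Jun, 99.5 for RUNX1, 99.4 for MyoG and 99.0 for MyoD. Where several factors were at the ceiling, c-Jun therefore ranked highest by construction. The part of these ties and of list size in the counts was not tested.

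The 4-factor regions differed from those lacking a single factor in a way that depended on the missing factor. Regions without MyoG had weak MyoD peaks: the median MyoD percentile was 77.4 in 4-factor regions and 31.6 in the 931 regions with RUNX1, MyoD and c-Jun alone, and it was higher in 4-factor regions on 19 of 19 chromosomes. RUNX1 was also lower there, with medians of 68.5 in 4-factor regions and 44.5 without MyoG. c-Jun was not: its medians were 68.7 in 4-factor regions and 68.1 without MyoG, and 4-factor regions were higher on 7 of 19 chromosomes only.

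Without MyoD, MyoG was weak, and RUNX1 was not. The median MyoG percentile was 81.2 in 4-factor regions and 33.2 in the 2586 regions with RUNX1, c-Jun and MyoG alone, the widest difference of the 12 made, at 47.9 percentile points (40.9 to 56.6 over chromosomes). RUNX1 was lower in 4-factor regions, with a median of 68.5 against 72.3 without MyoD, and was higher in 4-factor regions on 3 of 19 chromosomes only. This was the single one of the 12 differences with a negative median. Among regions with exactly 1 peak per list 2 of the 12 were negative: RUNX1 had medians of 65.7 in 4-factor regions and 71.0 without MyoD, and c-Jun 65.9 in 4-factor regions and 66.9 without MyoG. c-Jun had a median of 68.7 in 4-factor regions and 53.4 without MyoD.

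Without c-Jun, MyoG differed little and the other myoblast factors more. The median MyoG percentile was 81.2 in 4-factor regions and 78.0 in the 6615 regions with RUNX1, MyoD and MyoG alone, a difference of 3.18 points that ranged from 0.0993 to 7.24 over chromosomes. MyoD had medians of 77.4 in 4-factor regions and 55.8 without c-Jun, and RUNX1 68.5 and 47.9. Without RUNX1, MyoD differed least, with medians of 77.4 in 4-factor regions and 66.1 in the 4638 regions with MyoD, c-Jun and MyoG alone. MyoG had 81.2 in 4-factor regions and 58.3 without RUNX1, and c-Jun 68.7 and 50.6. In 10 of the 12 differences 4-factor regions had the higher median on all 19 chromosomes, the exceptions being c-Jun where MyoG was missing and RUNX1 where MyoD was missing.

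**Figure D2:**
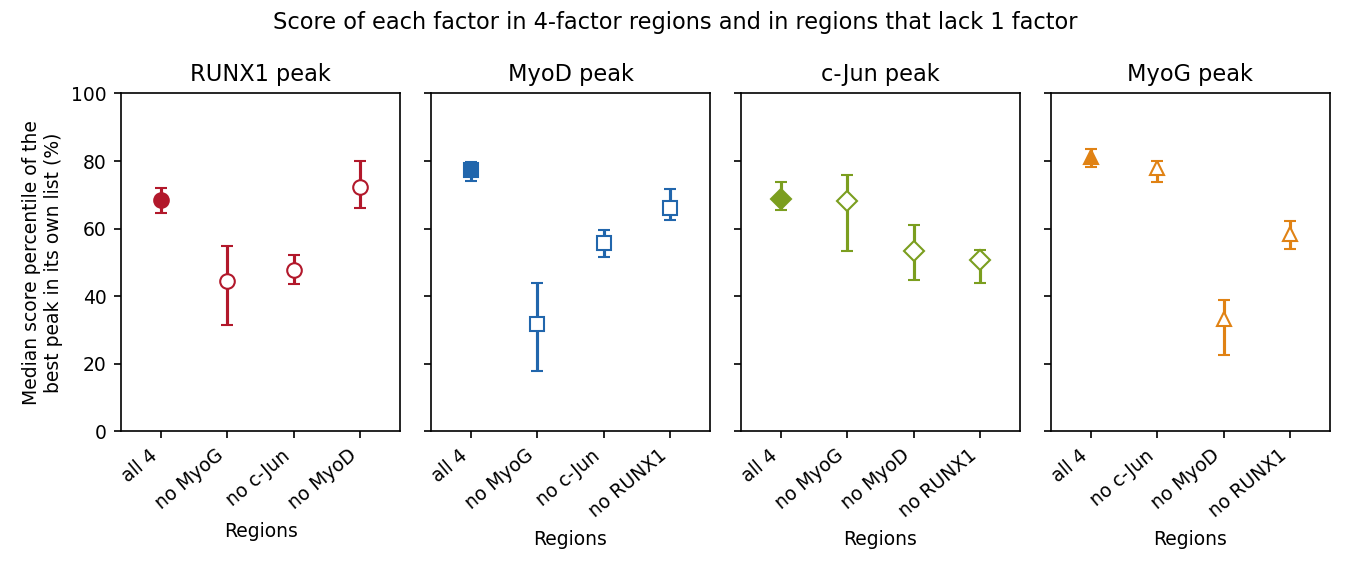
Median score percentile of the best RUNX1, MyoD, c-Jun and MyoG peak (vertical axis, percent of the factor's own list) in 4-factor regions (filled symbols) and in regions that lack the named factor and hold the other 3 (open symbols). Bars run from the lowest to the highest chromosome median over 19 chromosomes. MyoD is lowest where MyoG is missing, at 31.6, and MyoG is lowest where MyoD is missing, at 33.2.

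The 4-factor regions were the widest kind of merged region by median. The median width was 1547 bp, 90% of the regions lay between 1054 bp and 3156 bp, and the full range ran from 738 bp to 14404 bp. The next widest kind, with RUNX1, c-Jun and MyoG alone, had a median of 1484 bp. In 8249 regions (78.3%) each list gave exactly 1 peak, the lowest such share of any kind of region. The next lowest was 89.4%, in regions with RUNX1, c-Jun and MyoG alone. The part of the number of lists joined in these widths and shares was not tested. More than 1 peak was most frequent for MyoG (1746 regions, 16.6%), followed by MyoD (999, 9.49%), RUNX1 (633, 6.01%) and c-Jun (380, 3.61%). The order of the lists by median peak width over members ran the other way, from MyoG with the narrowest peaks to c-Jun with the widest, and the part of width in these counts was not tested.

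Merging can chain peaks that do not all meet, and this was rare. In 9984 regions (94.8%, 93.4% to 96.3% over chromosomes) at least 1 base was covered by all 4 lists, and in 8650 (82.1%) at least 500 bp were. The bases covered by all 4 lists, summed over each region, had a median of 685 bp. In 548 regions (5.20%) no base was shared by all 4. Taken by pairs, the MyoD and c-Jun peaks failed to overlap directly in 197 regions, RUNX1 and MyoG in 162, c-Jun and MyoG in 152, RUNX1 and MyoD in 149, MyoD and MyoG in 69 and RUNX1 and c-Jun in 48. All 6 pairs overlapped in 10019 regions (95.1%).

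At the edge of the rule, 46 regions were held together by a link of at most 100 bp, counted as the longest overlap of 1 list with any other list of the region. Of these, 4 had a link of at most 10 bp, and the shortest was a MyoD link of 2 bp. In 21 of the 46 c-Jun was the loosely linked factor, with a median percentile of 59.1, in 15 RUNX1 with 33.2, in 9 MyoD with 28.9 and in 1 MyoG with 35.2. Just outside, 151 regions with 3 factors had a peak of the missing list within 100 bp without touching it. They were 77 without c-Jun, 35 without RUNX1, 31 without MyoD and 8 without MyoG. Within 1 kb a peak of the missing list was found for 10.9% of regions without c-Jun, 9.94% without RUNX1, 13.2% without MyoD and 11.6% without MyoG.

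The centres of the 4 peaks lay close together, which overlapping peaks do by construction, and MyoD and MyoG were the closest pair throughout. No distances are given for other kinds of region, so the closeness is not shown to be particular to 4-factor regions. Taking from each list the peak that gave the tightest set, the span from the first to the last of the 4 centres had a median of 256.5 bp (213 bp to 297 bp over chromosomes). In 2965 regions (28.2%) the 4 centres fell within 150 bp, in 290 (2.75%) within 50 bp, and in 592 (5.62%) they spread over more than 1 kb. The median distance of MyoD from MyoG was 60.25 bp (54.5 bp to 65.5 bp), although the factors were mapped in different cell stages. The next closest pair was RUNX1 and MyoG at 104 bp (87 bp to 130.5 bp). The other 4 pairs lay between 121 bp for c-Jun and MyoG and 137 bp for RUNX1 and c-Jun, and their chromosome ranges overlapped. MyoD and MyoG lay within 150 bp of each other in 81.8% of regions, against 60.5% for RUNX1 and MyoG and 53.0% for RUNX1 and c-Jun. The centre of a wide peak is a less exact position than that of a narrow one, and MyoD and MyoG had the narrower peaks.

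Where the 4 centres spread out, the distance between MyoD and MyoG grew little. The span is the largest of the pair distances, so sorting by it places some pairs far apart in the widest set by construction. A pair that is close in most regions then grows less, so the contrast is a description only. The regions were put into 4 equal sets of 2633 by span. From the tightest set (span up to 138 bp) to the widest (494 bp or more), the median distance of MyoD from MyoG was 37 bp, 59.5 bp, 76.5 bp and 91 bp. Every other pair reached a median of at least 421 bp in the widest set. RUNX1 and MyoD were 48.5 bp, 117 bp, 231.5 bp and 515 bp apart, and RUNX1 and c-Jun 44 bp, 119 bp, 229 bp and 503.5 bp. In the widest set the largest gap between neighbouring centres set c-Jun apart from the other 3 in 804 regions (30.5%), RUNX1 apart in 735 (27.9%), and RUNX1 with c-Jun apart from MyoD with MyoG in 575 (21.8%). MyoG stood alone in 88 (3.34%) and MyoD in 249 (9.46%). RUNX1 with MyoD apart from c-Jun with MyoG was the rarest division there, at 59 regions (2.24%). Over all 4-factor regions, the centre whose removal narrowed the span most was that of c-Jun in 35.6%, RUNX1 in 33.3%, MyoD in 18.6% and MyoG in 12.2%.

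**Figure D3:**
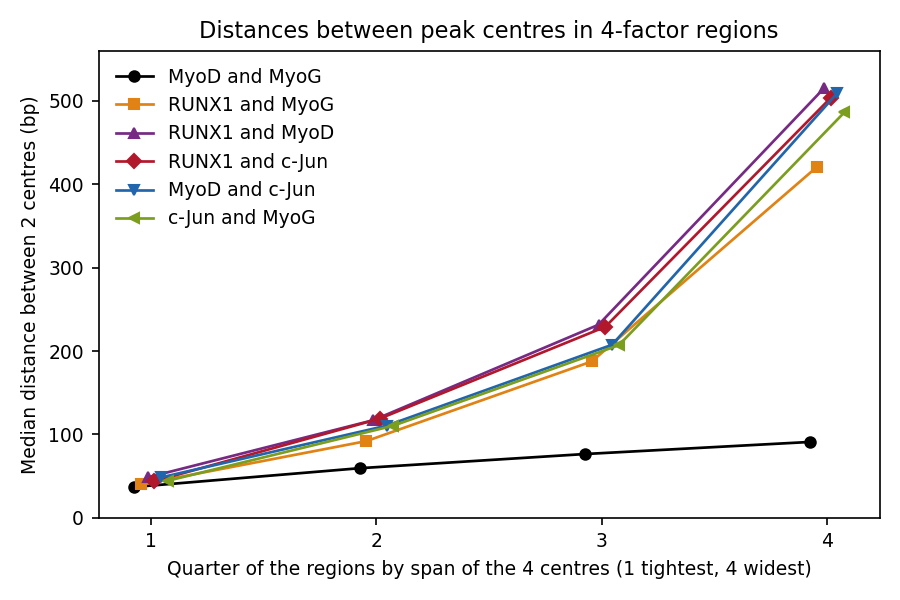
Median distance between the centres of each pair of peaks (vertical axis, bp) in 4 equal sets of 4-factor regions, ordered by the span of their 4 centres (horizontal axis, 1 tightest to 4 widest). Points are slightly shifted sideways for legibility. MyoD and MyoG stay at or below 91 bp, while the other 5 pairs reach 421 bp or more. The span is the largest of these distances, so long distances in set 4 follow in part from the sorting.

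Between the tightest and the widest set, peak strength differed in opposite directions for different factors. The median MyoD percentile was 80.5 in the tightest set and 71.3 in the widest, and the tightest set was higher on 19 of 19 chromosomes. For MyoG the medians were 81.6 and 78.5, with the tightest set higher on 15 of 19. The sets between them had MyoG medians of 82.1 and 82.3, so only the widest set was lower. RUNX1 had medians of 63.3 in the tightest set and 74.4 in the widest, with the tightest set higher on 1 of 19 chromosomes. c-Jun had medians of 65.5 and 71.2, with the tightest set higher on 2 of 19. The widest set held more regions with several peaks of a list, since 49.1% of its regions had exactly 1 peak per list, against 94.8% in the tightest set. The regions with exactly 1 peak per list were put into 4 sets anew. From tightest to widest, the c-Jun medians were 64.5, 66.4, 67.6 and 64.9, so the end sets hardly differed. MyoG had 81.0, 81.7, 81.8 and 74.2. In the same order RUNX1 had 61.6, 65.3, 68.3 and 67.7, and MyoD 79.7, 78.9, 77.4 and 67.9. The drop of MyoD thus lay mostly in the widest set, and RUNX1 rose no further there. The part of peak width in these differences was not tested.

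Across the regions, only the scores of MyoD and MyoG were closely related. Spearman's rho between their percentiles was 0.65 over the 10532 regions and ranged from 0.61 to 0.71 over chromosomes. The next highest was RUNX1 with MyoG at 0.28 (0.21 to 0.35), followed by MyoD with c-Jun at 0.22, RUNX1 with c-Jun at 0.18 and RUNX1 with MyoD at 0.14. c-Jun with MyoG stood at 0.05, with chromosomes on either side of 0 (-0.04 to 0.22). These are descriptions with no test, because neighbouring regions are not independent and the scores belong to the peaks that the rule chose. The relation of MyoD with MyoG was weaker in every other kind of region with both: 0.52 in the 6615 regions with RUNX1 added, 0.45 in the 4638 with c-Jun added and 0.35 in the 12071 with MyoD and MyoG alone. RUNX1 with MyoG followed the same order, at 0.28 in 4-factor regions, 0.19 with MyoD added, 0.12 with c-Jun added and 0.06 with the pair alone. Regions with few factors held mostly weaker peaks, and the part of that in the lower values was not tested. c-Jun with MyoG stayed near 0: 0.05 in 4-factor regions, 0.04 with MyoD added, -0.04 with RUNX1 added and -0.07 with the pair alone. These values differed little beside the chromosome range of -0.04 to 0.22 in 4-factor regions. The remaining pairs did not fall with fewer factors throughout. RUNX1 with MyoD had 0.14 in 4-factor regions, 0.12 with MyoG added, -0.02 with c-Jun added and -0.01 with the pair alone. For RUNX1 with c-Jun rho was 0.18 both in 4-factor regions and in the 931 regions without MyoG. For MyoD with c-Jun it was 0.22 both in 4-factor regions and in the 4638 regions without RUNX1.

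**Figure D4:**
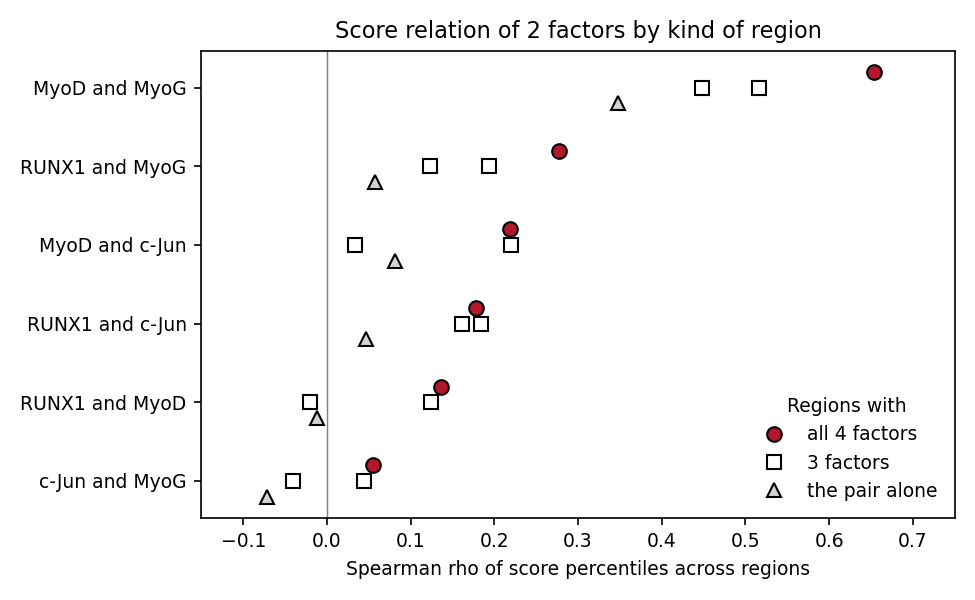
Spearman's rho between the score percentiles of each pair of factors (horizontal axis) across regions of 1 kind, for 6 pairs (vertical axis). Filled circles stand for 4-factor regions, open squares for regions with 1 further factor and grey triangles for regions with the pair alone. MyoD and MyoG reach 0.65 in 4-factor regions, and c-Jun and MyoG stay near 0.

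The strongest 4-factor regions were ranked by their weakest factor. In 5 regions all 4 factors were at or above the score ceiling. They lay at chr18:14488489-14490914, chr7:30791107-30796397, chr6:91566266-91572104, chr15:28060949-28064533 and chr10:79621183-79629259. The region on chromosome 18 was the most regular of them, with 1 peak per list, a width of 2426 bp, a span of 149 bp and 1847 bp covered by all 4 lists. The one on chromosome 10 was the broadest of the 5, with a width of 8.08 kb, 11 peaks and 4284 bp covered by all 4 lists. A further region at chr10:128356027-128361691 had 3 ceiling scores and a c-Jun score of 2962, and chr1:78533576-78536581 had 3 and a c-Jun score of 2633. The 10 best were completed by chr1:172630690-172633685, chr11:8342952-8345731 and chr7:20495838-20498486, in which the lowest of the 4 percentiles was 98.1, 98.1 and 97.9. In chr1:172630690-172633685 the scores were 2417 for RUNX1, 3100 for MyoD, 2832 for c-Jun and 2821 for MyoG.

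The regions with the tightest centres were not among the strongest. At chr7:140032555-140033734 the 4 centres fell within 5 bp, with scores of 118 for RUNX1, 1161 for MyoD, 311 for c-Jun and 214 for MyoG. At chr14:47569998-47571398 they fell within 8.5 bp, and there MyoG was strong with a score of 2297 while c-Jun had 151. The other 3 of the 5 tightest were chr4:122536193-122537358 with a span of 9 bp, chr17:56499318-56500592 with 10.0 bp and chr6:4456853-4458161 with 12.5 bp. Each of the 5 had exactly 1 peak per list and was between 1166 bp and 1401 bp wide. In the last, c-Jun was the strongest factor, with a score of 1780.

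The regions with the most peaks were wide and mixed in strength. The widest of all, chr19:5836524-5850927, was 14.4 kb long and held 21 peaks: 2 of RUNX1, 6 of MyoD, 4 of c-Jun and 9 of MyoG. Its best scores were 3100 for RUNX1, 3100 for MyoD, 2809 for c-Jun and 2248 for MyoG. A region at chr12:113854705-113862560 held 13 peaks with a MyoG score of 3100 and a c-Jun score of 860, and chr10:80869884-80875995 held 13 with a RUNX1 score of 1741. At chr11:98797017-98807230, 12 peaks over 10.2 kb included 6 MyoG peaks, the best with a score of 476, and the best MyoD score was 171. The fifth, chr11:117170308-117177217, also held 12 peaks, 5 of them MyoG. In the third widest region, chr2:77768852-77778656, a single MyoD peak at the ceiling spanned the whole 9.80 kb, while RUNX1, c-Jun and MyoG had 1 peak each with scores of 413, 233 and 421. Of 12 MyoD peaks wider than 4 kb on the chromosomes used, this was the 1 in a 4-factor region. RUNX1 had 69 such wide peaks, 54 of them in 4-factor regions. c-Jun had 17, 11 of them in 4-factor regions, and MyoG had 1, which lay in such a region. Over peaks of all widths the shares in 4-factor regions were 25.7% for MyoD, 26.5% for RUNX1, 26.4% for c-Jun and 20.4% for MyoG. The part of width in these counts was not tested.

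At the other end, some regions were weak in all 4 lists. In chr9:59200001-59201649 the scores were 61.4 for RUNX1, 65.0 for MyoD, 67.7 for c-Jun and 72.05 for MyoG, and no base was covered by all 4. The next were chr13:92842677-92843574, chr19:5601384-5602783, chr2:72842001-72843026 and chr18:74280029-74280938, in which no score was above 85.7. Other regions were carried by 1 factor. In chr12:100871214-100872604 RUNX1 had a score of 2286, while MyoD, c-Jun and MyoG had 57.9, 83.6 and 93.9. In chr9:78788976-78790353 c-Jun had 2128, while RUNX1, MyoD and MyoG had 53.3, 75.3 and 71.35. MyoD led in chr8:82539600-82541255, with 856 against 50.1 for RUNX1, 50.3 for c-Jun and 93.0 for MyoG, and the 4 lists shared no base there. MyoG led in chr13:43798647-43799527, with 726 against at most 58.2 for the others.

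**Figure D5:**
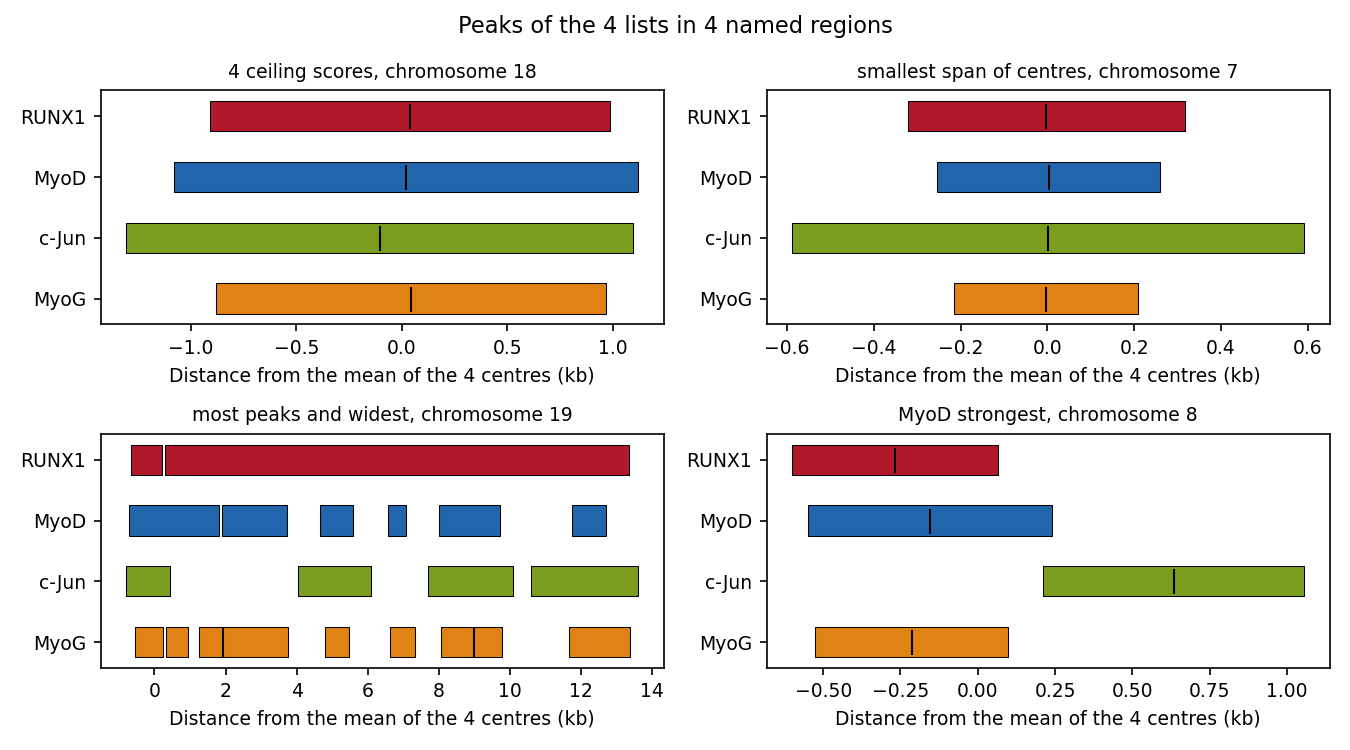
Peaks of the 4 lists in 4 named regions, drawn to scale as the distance from the mean of the 4 centres (horizontal axis, kb). Each bar is 1 peak, rows are the lists, and a black tick marks the centre where a list has 1 peak. The chromosome 18 region has 1 long peak per list, the chromosome 7 region has centres within 5 bp, the chromosome 19 region holds 21 peaks, and in the chromosome 8 region the c-Jun peak meets the MyoD peak alone.

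Many 4-factor regions lay near one another. The median gap to the next 4-factor region was 23.4 kb, and 3319 regions (31.5%, 22.3% to 37.5% over chromosomes) lay within 10 kb of another. MyoG-only regions, which are more numerous at 16259, lay slightly closer to their own kind, with a median gap of 20.7 kb and 33.6% within 10 kb. The 3-factor regions, which are fewer, lay farther from their own kind, with 18.3% within 10 kb for those without c-Jun and 10.0% for those without RUNX1. Peaks are dense in places whatever their kind: 87.3% of 4-factor regions, against 78.6% of all merged regions, had some merged region within 10 kb. Among the other kinds of region, 14.5% of MyoD-only regions lay within 10 kb of a 4-factor region, 18.4% of RUNX1-only, 16.9% of c-Jun-only and 22.8% of MyoG-only ones. For regions with 3 factors these shares were 27.6% without c-Jun, 24.6% without MyoD, 21.4% without RUNX1 and 18.2% without MyoG.

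Linking neighbours at gaps of up to 10 kb left 7213 regions alone and put 2174 into 1087 pairs and 1145 into groups of 3 or more. The grouped regions were stronger. The median RUNX1 percentile was 75.2 in groups of 3 or more and 67.0 in lone regions, and for c-Jun it was 74.5 and 67.5. MyoG had medians of 86.5 in groups of 3 or more and 79.5 in lone regions, and MyoD 80.3 and 76.6. The largest group, singled out after its values were seen, held 10 regions over 35.0 kb at chr2:60526675-60561719. In it MyoG and MyoD had median percentiles of 89.2 and 83.7, and RUNX1 and c-Jun 52.0 and 60.9. The 3 regions farthest from any other merged region were chr3:25042451-25045010 at 371 kb, chr16:73647052-73648455 at 311 kb and chr3:118845529-118847454 at 277 kb. The lone region on chromosome 16 had scores of 1406 for MyoD and 919 for MyoG, with 136 for RUNX1 and 66.3 for c-Jun.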

How the data were processed

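ChIP-seq peaks of 4 factors were taken from 4 deposited lists, 1 per factor. Each factor had 2 ChIP and 2 control samples. Per the submitters' processing notes, CASAVA 1.7.0 and 1.8.2 and Bowtie were used on the build mm9. The deposited score of each peak is the authors' own, under peak names that begin with MACS. How MACS was run (version, settings, control, joined or separate replicates) is not stated by any label or header used here. Deposited starts were taken as counted from 0 and are printed counted from 1.

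Peaks of chromosomes 1 to 19 were joined at 1 bp of overlap (Python 3.11.15, pandas 2.3.3, numpy 2.4.6). bedtools 2.31.1 gave the same 97753 regions, and the joining was tested on simulated data. A peak's centre is the middle of its interval. Percentiles are ranks within a whole list, with scores of 3100 or more tied. Intervals for the alternatives used scipy 1.17.1, and figures matplotlib 3.10.9. No test was run, since the rule used the peak calls and no replicate values exist. Depth is unknown, so a missing peak does not show that a factor was absent.

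The regions and measures were chosen with earlier results of these data known. Named regions followed a written rule: the 10 with the best lowest percentile, the 5 with the tightest centres, the 5 with most peaks, the 5 weakest, the 3 widest, the 3 most isolated and 1 led by each factor. The motif and gene-distance parts of the plan were not run, because the reference used here is of another build. Alternatives were overlap of 50% of the shorter peak, centres joined within 150 bp, 200 bp windows around centres and the upper 50% of scores. Further ones were scores of at least 100, chromosome X added and no peaks wider than 4 kb. Joining runs in chains under each rule, so centres of a region can lie farther apart than the distance named. Leaving out ceiling peaks and using regions with 1 peak per list were chosen after seeing the data.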

Additional observations from a re-analysis of the deposited data

Results flagged for a closer look

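Chromosome X was outside the rule, and its peaks were in the lists. Joined in the same way, it held 77 regions bound by all 4 factors, 4.29% of its 1795 merged regions, against 10.8% on chromosomes 1 to 19. In these 77 the median percentile was 51.2 for RUNX1, 71.3 for MyoD, 44.8 for c-Jun and 74.0 for MyoG. The MyoD list also held 19 peaks on chromosome Y, where the other 3 lists held 0, so that no 4-factor region could arise there.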

How the results depend on the processing

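Of 64 alternatives to the 8 main results, 20 stayed within a set margin and 44 did not. For the number of regions the margin was 1.5 times. For the rest it was the 95% interval of the value (Wilson for shares, order statistics for medians). These intervals take peaks or regions as independent, which neighbouring regions are not, and show no spread between replicates. The 1.5 times margin is of another kind, so the tally is a rough one and not a test. The number of regions was 10150 with an overlap of 50% of the shorter peak, 5141 where centres were joined within 150 bp, and 6238 with 200 bp windows. It was 3882 for the stronger 50% by score and 6469 for scores of at least 100. Each of these rules keeps fewer overlaps by construction. Joining runs in chains, so the 4 centres of the 5141 regions need not all lie within 150 bp. Under the main rule, 2965 regions had all 4 centres within 150 bp. The shares of RUNX1, MyoD, c-Jun and MyoG peaks in the regions were 24.8%, 24.1%, 24.9% and 18.8% with 50% of the shorter peak, and 12.2%, 11.4%, 12.4% and 8.36% with centres within 150 bp. They were 14.8%, 13.8%, 15.0% and 10.2% for 200 bp windows, 19.2%, 18.6%, 19.2% and 14.4% in the stronger 50%, 23.0%, 22.3%, 23.1% and 17.2% with scores of at least 100, and 23.6%, 23.0%, 23.5% and 18.1% without ceiling peaks. MyoG kept the lowest share in each. The median span was 243 bp, 135.5 bp, 156 bp, 272 bp and 266.5 bp under the first 5 of these settings, in that order. The share of regions with a base covered by all 4 lists was 97.5%, 100%, 67.5%, 96.3% and 95.5% in the same order and 93.7% without ceiling peaks. The 67.5% counts bases shared by the 200 bp windows and not by the peaks, so it is not on the same footing as the others. The share within 10 kb of another was 17.1% for centres within 150 bp, 18.2% for 200 bp windows and 18.2% in the stronger 50%. It was 24.0% with scores of at least 100 and 27.5% without ceiling peaks. Adding chromosome X or dropping peaks wider than 4 kb moved none of the 8. The median percentiles ranged over all alternatives from 64.8 to 83.6 for RUNX1, 73.6 to 88.5 for MyoD, 66.4 to 84.1 for c-Jun and 78.2 to 89.99 for MyoG. The upper ends all came from the stronger 50% by score, where every percentile is above 50 by construction. No paired analysis was possible because each factor has a single list without replicate values, which also prevents leaving out a replicate. Motif shares and gene distances, with their alternatives, were not run. Depth is unknown, which limits what a missing peak can show.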
